A study of Mus musculus with 6 samples.

Results

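Canonical Wnt signalling is tuned at the cell surface by 3 small gene families, and their 9 mouse genes are described here in cells sorted from injured kidneys. The members are the R-spondin genes Rspo1, Rspo2, Rspo3 and Rspo4, the receptor genes Lgr4, Lgr5 and Lgr6 and the ubiquitin ligase genes Znrf3 and Rnf43. They were taken by gene symbol, each stood on 1 row, and they are 9 of 31815 gene rows in the deposited table. The libraries came from male mice aged 9 to 12 weeks, all carrying Axin2CreERT2/+:R26RtdT/+ and Acta2-GFP, that had undergone bilateral ischemia reperfusion injury and received tamoxifen on days 2 and 4. Cells of cortex and outer medulla were sorted on day 6 into a tdT+GFP+ and a tdT-GFP+ population, and by the source labels each of kidneys 1, 2 and 3 gave 1 library per population. The red tdT label is lasting and marks cells in which Axin2, a Wnt feedback gene, drove the Cre when tamoxifen was present, while GFP follows Acta2, the smooth muscle actin gene used by myofibroblasts and also by vascular smooth muscle. Both populations therefore carried the injury, the drug and all 3 alleles, and the sort divided them by the red label. Uninjured kidneys and cells without GFP were not analysed here.

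Secreted R-spondins bind an Lgr receptor together with Znrf3 or Rnf43. Without R-spondin these ligases mark Frizzled receptors and the Lrp5 and Lrp6 co-receptors for removal, so that a cell becomes less sensitive to Wnt; R-spondin draws the ligase off the surface and the Wnt receptors stay. Znrf3, Rnf43 and Lgr5 are themselves known Wnt targets in many tissues, which makes the ligases a negative feedback loop. Heparan sulfate proteoglycans can also hold R-spondins at the cell surface.

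Library totals ran from 25697348 to 33029933 counts. Levels are given as CPM (counts scaled to a common library size) on TMM-scaled totals, and log2 fold changes are tdT+GFP+ over tdT-GFP+, from edgeR's quasi-likelihood test over all genes that passed a filter on low counts, with adjusted p under 0.05 as the threshold. Summed over 8 fibroblast and myofibroblast markers, including Acta2, Pdgfrb and Col1a1, the level was 43757 to 49021 CPM in tdT+GFP+ and 33516 to 50051 CPM in tdT-GFP+ libraries. Most of this sum was Col1a1 (19097 to 21853 against 14933 to 21494 CPM) and Col3a1 (18256 to 20135 against 13949 to 21637 CPM). Acta2 itself had 1416 to 1747 against 943 to 1589 CPM. All 8 had higher means in tdT+GFP+ cells (median log2 fold change 0.15), and 0 passed the threshold. Markers of endothelial, tubule, mural and macrophage cells were present in every library. Mural cells include vascular smooth muscle, which also uses Acta2, so the GFP sort itself can take them. Endothelial markers summed to 1397 to 2058 against 2145 to 3837 CPM, tubule epithelial markers to 559.7 to 1006 against 848 to 1906 CPM, mural markers to 974 to 1166 against 1191 to 1938 CPM, and macrophage markers to 434 to 1555 against 319 to 949.9 CPM. The means of all 12 endothelial markers and of 11 of 12 tubule markers were lower in tdT+GFP+ cells, those of all 9 macrophage markers were higher, and none of the markers in these 4 lists was at 0 in any library. Of the 12 endothelial markers, 8 lay lower without overlap, as did 8.60% of all genes tested, and 0 passed the threshold. Each macrophage marker was higher in tdT+GFP+ cells in kidneys 1 and 2 and lower in kidney 3. For Lyz2 these log2 differences were 0.90, 2.85 and -1.16. Podocyte markers summed to 319.9 to 384 against 318 to 382 CPM. The 7 mesothelial markers summed to 25.75 to 46.8 against 29.4 to 40.4 CPM. Muc16 was at 0 in every library and Lrrn4 in 5 of the 6, while Gpm6a had 19.8 to 30.4 against 16.3 to 27.3 CPM. Msln was low but higher without overlap, at 0.951 to 2.16 against 0.299 to 0.527 CPM, as were 7.23% of all genes. Its log2 fold change was 1.82 (edgeR adjusted p = 0.394). DESeq2 called it (adjusted p = 0.0330), but not with the kidney as a block (0.295). In such bulk samples, fewer cells of a type and less RNA per cell cannot be told apart.

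The receptors Lgr4 and Lgr6 and the ligase Znrf3 were the abundant members, and the R-spondins were scarce in both populations. After division by exon length, the mean over the 6 libraries was 7.51 CPM per kb for Lgr4, 6.38 for Lgr6, 1.91 for Znrf3, 0.854 for Rspo1, 0.531 for Rspo3, 0.378 for Lgr5, 0.196 for Rnf43, 0.0105 for Rspo4 and 0.0056 for Rspo2. In tdT+GFP+ libraries the levels per kb of Lgr6 and Lgr4 overlapped, as did those of Rspo3 and Lgr5, of Lgr5 and Rnf43, and of Rspo2 and Rspo4. The same neighbours overlapped in tdT-GFP+ libraries. Between the other neighbours in the order (Lgr4 or Lgr6 to Znrf3, Znrf3 to Rspo1, Rspo1 to Rspo3, and Rnf43 to the 2 lowest genes) the ranges did not overlap in either population. The order depended in part on the length used. With the longest transcript in place of all exons, the mean of Lgr5 was 0.809 CPM per kb, its range overlapped that of Rspo1 in both populations and that of Znrf3 in tdT-GFP+ cells, and Lgr4 stood above Lgr6 without overlap in tdT-GFP+ cells.

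**Figure D1:**
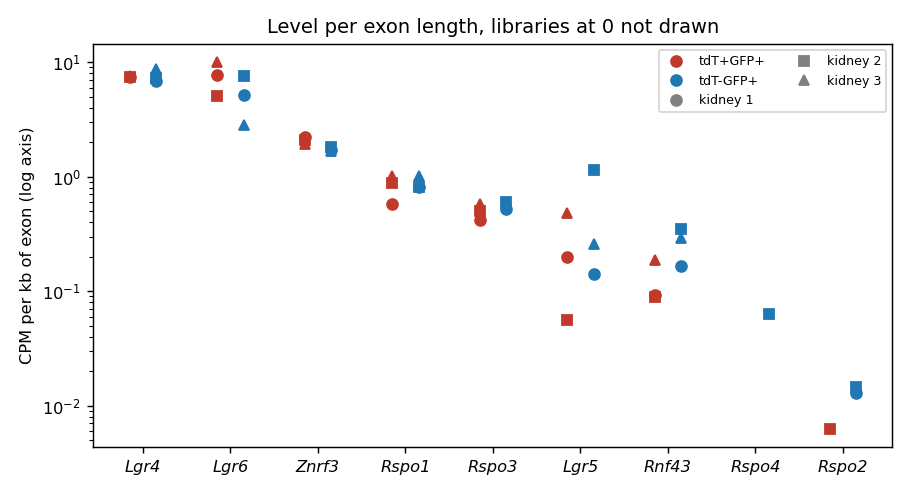
Level of each member in CPM per kb of exon (log axis) in the 6 libraries, with red for tdT+GFP+ and blue for tdT-GFP+ cells and the symbol giving the kidney; libraries with a count of 0 are not drawn. Lgr4, Lgr6 and Znrf3 stand above the R-spondins, and Lgr5 has the widest scatter.

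No member passed the threshold. Of the 9, 7 passed the filter and were tested, and 0 of 7 were called, against a background of 0% of 15462 genes (smallest adjusted p among the members 0.442, edgeR). At an unadjusted p under 0.05 there were 2 of 7, where 10.7% of all genes tested had such a p. They were Znrf3 with a positive value (3.71% of all genes) and Rnf43 with a negative one (6.97%). DESeq2 called 0 members (2.00% of all genes it tested), and 0 when the kidney was a block (1.90%). Neither limma-voom nor edgeR with that block called a member (0% of all genes in both). Among the 7 tested, 2 had positive and 5 negative values with a median log2 fold change of -0.09, beside -0.00039 over all genes tested. The scatter between libraries differed widely from gene to gene. The highest library was 1.28 times the lowest for Lgr4, 1.33 times for Znrf3, 1.46 times for Rspo3, 1.75 times for Rspo1, 3.56 times for Lgr6, 3.93 times for Rnf43 and 20.0 times for Lgr5.

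**Figure D2:**
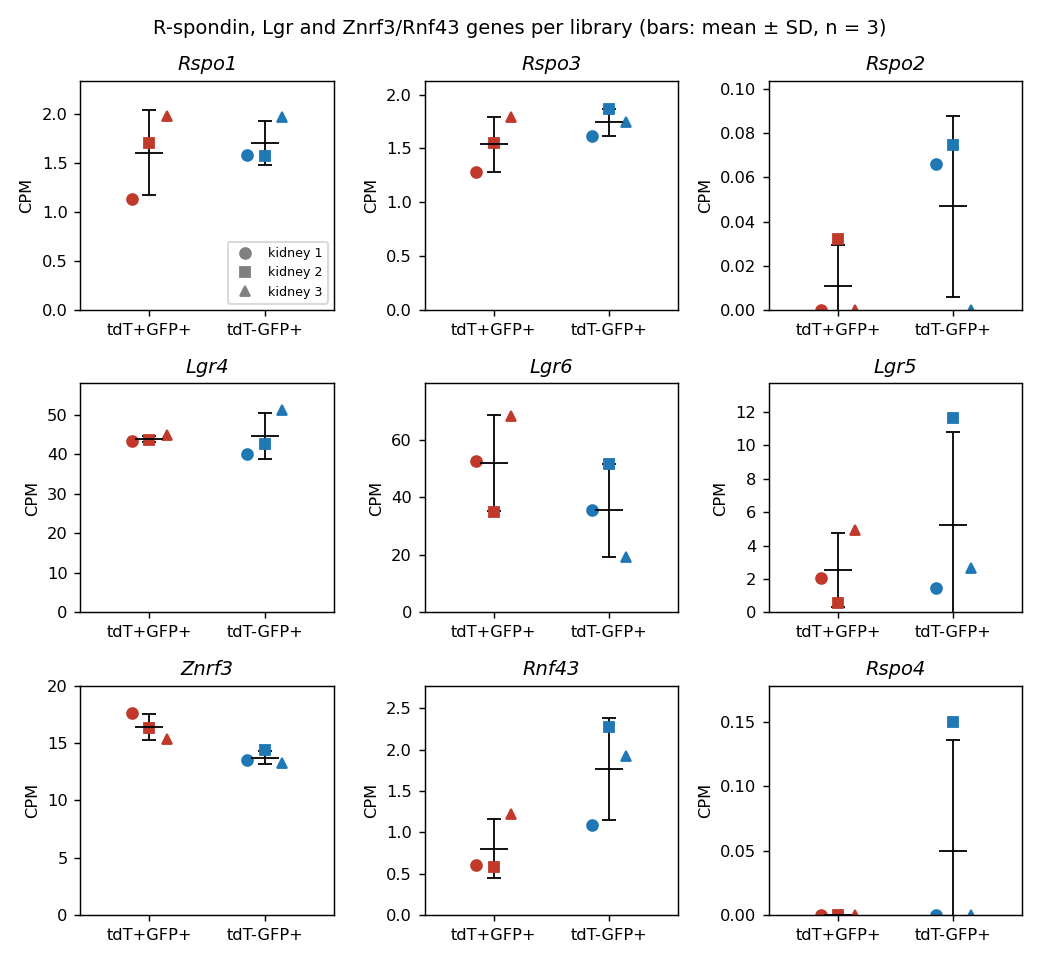
CPM of the 9 genes in each library, with red for tdT+GFP+ and blue for tdT-GFP+ cells, the symbol giving the kidney, and the mean with its SD in black (n = 3, bars cut at 0). The populations separate for Znrf3 (15.4 to 17.6 against 13.3 to 14.4 CPM) and overlap for the other genes.

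Among the ligands, Rspo1 and Rspo3 were detected at a low and even level in every library, and Rspo2 and Rspo4 were at or close to 0. Rspo1 (ENSMUSG00000028871.7, GRCm38 chromosome 4, 124986430 to 125009099, plus strand) encodes the R-spondin known from gonad and skin development. It had 37, 53 and 52 counts in tdT+GFP+ libraries 1, 2 and 3, or 1.13, 1.71 and 1.98 CPM, and 48, 42 and 53 counts in tdT-GFP+ libraries, or 1.58, 1.57 and 1.97 CPM. The lowest and the highest Rspo1 value were both in tdT+GFP+ cells, so that the tdT-GFP+ range lay inside the other. Its log2 fold change was -0.09 (95% interval -0.78 to 0.60, SE 0.29, edgeR adjusted p = 0.913), and the sign turned when library 1 of tdT+GFP+ cells (0.11), library 3 of tdT-GFP+ cells (0.02) or the pair from kidney 1 (0.08) was left out.

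Rspo3 (ENSMUSG00000019880.10, chromosome 10, 29452416 to 29535867, minus strand) encodes a ligand known from stroma and from endothelium, where it acts in vessel growth. It had 1.28, 1.55 and 1.79 CPM in libraries 1, 2 and 3 of tdT+GFP+ cells, and 1.61, 1.87 and 1.74 CPM in those of tdT-GFP+ cells. The populations overlapped, with a log2 fold change of -0.18 (95% interval -0.75 to 0.39, SE 0.24, edgeR adjusted p = 0.765). The 12 endothelial markers had log2 fold changes from -1.57 to -0.16, with a median of -1.28, in the same libraries, and what part endothelial RNA had in the Rspo3 values was not tested. The SD between libraries was 0.254 CPM in tdT+GFP+ and 0.128 CPM in tdT-GFP+ cells, beside 0.229 and 0.250 CPM that counting alone gives at these depths. For Rspo1 the SD was 0.434 and 0.225 CPM, beside 0.234 and 0.247 CPM from counting. The spread of both genes was thus near or below the counting error, apart from Rspo1 in tdT+GFP+ cells, and a finer difference was not detectable at this depth. An antisense model shares 404 bases with exons of Rspo3 (its own row had 0 counts in every library), and the sources used here do not say if reads were counted by strand.

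Rspo1 stood above Rspo3 per kb in all 6 libraries, by a ratio of 1.64 ± 0.207 in tdT+GFP+ and 1.57 ± 0.229 in tdT-GFP+ cells (SD, n = 3 each). Rspo2 (ENSMUSG00000051920.7, chromosome 15, 43020794 to 43170826, minus strand), known from limb and lung development, had 0, 1 and 0 counts in tdT+GFP+ and 2, 2 and 0 counts in tdT-GFP+ libraries. Rspo4 (ENSMUSG00000032852.3, chromosome 2, 151842927 to 151874668, plus strand), known from nail formation, had 4 counts in tdT-GFP+ library 2 and 0 in the other 5. A count of 0 allows up to 3 counts, which is 0.0915 to 0.114 CPM in these libraries, with counting error only. Of these 2 genes, only Rspo4 in tdT-GFP+ library 2 exceeded that limit (0.149 CPM), and neither passed the filter.

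Among the receptors, Lgr4 was nearly the same in all libraries, Lgr6 was also abundant but scattered, and Lgr5 was low with 1 library far above the rest. Lgr4 (ENSMUSG00000050199.13, chromosome 2, 109917647 to 110014257, plus strand) is the broadly used receptor of the family and is known to act in kidney development. It had 43.2, 43.5 and 44.8 CPM in libraries 1, 2 and 3 of tdT+GFP+ cells, and 40.0, 42.5 and 51.1 CPM in those of tdT-GFP+ cells. The tdT+GFP+ values lay close together inside the range of the other population. The log2 fold change was -0.02 (95% interval -0.26 to 0.22, SE 0.10, edgeR adjusted p = 0.944), and leaving out library 3 of tdT-GFP+ cells gave 0.09 and leaving out the pair from kidney 3 gave 0.07.

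Lgr6 (ENSMUSG00000042793.13, chromosome 1, 134983301 to 135105276, minus strand), known as a stem cell marker in skin, had 52.6, 35.0 and 68.3 CPM in tdT+GFP+ libraries 1, 2 and 3. In tdT-GFP+ libraries 1, 2 and 3 it had 35.5, 51.8 and 19.2 CPM. Each population had high and low libraries, and the ranges overlapped. The log2 fold change was 0.55 (95% interval -0.39 to 1.48, SE 0.39, edgeR adjusted p = 0.585). Within kidneys 1, 2 and 3 the log2 difference was 0.56, -0.56 and 1.83, so the direction in kidney 2 was opposite to that in kidneys 1 and 3. The fitted value was 0.31 when library 3 of tdT+GFP+ cells was left out, 0.25 when library 3 of tdT-GFP+ cells was, and 0.0052 when both were. It came to 0.92 when library 2 of tdT-GFP+ cells was left out and to 1.14 when the pair from kidney 2 was. Counting error was small beside this scatter, at 1.33 and 1.13 CPM against SDs of 16.7 and 16.3 CPM in tdT+GFP+ and tdT-GFP+ cells. The ratio of Lgr6 to Lgr4 per kb, which does not depend on the scaling of a library, was 1.04, 0.690 and 1.31 in tdT+GFP+ and 0.762, 1.05 and 0.322 in tdT-GFP+ libraries 1, 2 and 3. Lgr6 exceeded Lgr4 in 2 of 3 libraries of tdT+GFP+ cells and in 1 of 3 of tdT-GFP+ cells by these lengths, but in 1 of 3 and 0 of 3 with longest transcripts (ratios of 0.922, 0.609 and 1.16 against 0.673, 0.923 and 0.285).

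The 3 libraries with the most Lgr6 were also the 3 with the most Axin2. Axin2 had 52.8, 29.7 and 64.2 CPM in libraries 1, 2 and 3 of tdT+GFP+ cells, and 43.0, 64.2 and 27.3 CPM in those of tdT-GFP+ cells. Its log2 fold change was 0.12 (SE 0.38, adjusted p = 0.907, edgeR), which turned negative when library 3 was left out, to -0.12 for that of tdT+GFP+ cells, -0.13 for that of tdT-GFP+ cells and -0.38 for the pair. Likeness of pattern was measured as the root mean square difference of log2 CPM over the 6 libraries after centring each gene on its own mean, among 11091 other genes with a mean of at least 5 CPM. The 3 genes nearest to Lgr6 were Ajap1, which encodes a junction-associated membrane protein (0.09), Apcdd1, a Wnt target whose product inhibits Wnt signalling at the cell surface (0.12), and Gdnf, the ligand of the Ret receptor (0.13). Axin2 was at rank 22 from Lgr6 (0.26), where the deviation of Lgr6 from its own mean was 0.59. The other tested members ranked far from Axin2, but this measure also depends on how much each gene varies. The deviation from the own mean was 0.49 for Axin2, 0.11 for Lgr4, 0.15 for Znrf3, 0.17 for Rspo3 and 1.31 for Lgr5. A gene that varies much less or more than Axin2 cannot lie near it, whatever its pattern, so the ranks do not compare patterns alone. Counted from Axin2, Lgr6 was at rank 76, Znrf3 at 3985, Rspo3 at 5192 and Lgr4 at 7553. Rspo1 was at rank 9052, Rnf43 at 10165 and Lgr5 at 10712. Counted from Lgr5 instead, Axin2 was at rank 208 (1.02). Apcdd1 had 108, 64.9 and 126 CPM in tdT+GFP+ and 70.0, 119 and 43.2 CPM in tdT-GFP+ libraries 1, 2 and 3, and the same 3 libraries were high. This likeness is over 6 libraries that share kidneys in pairs, and it is given as a description.

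The windows of 250 bases before the annotated starts of Lgr6, of Axin2, which varied with it, and of Lgr4, the steady receptor, are shown so that the genes can be compared (RefSeq, GRCm38.p6, each read along its gene). They lie at chr1:135105277-135105526 (minus strand), chr11:108920099-108920348 (plus strand) and chr2:109917397-109917646 (plus strand). Capitals would mark a core motif of TCF/LEF factors, the DNA-binding partners of beta-catenin.
Lgr6: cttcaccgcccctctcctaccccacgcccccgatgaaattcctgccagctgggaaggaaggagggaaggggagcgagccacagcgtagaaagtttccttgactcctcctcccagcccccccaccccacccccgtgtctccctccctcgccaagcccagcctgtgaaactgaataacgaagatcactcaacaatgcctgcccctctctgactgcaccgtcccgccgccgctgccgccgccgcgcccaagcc
Axin2: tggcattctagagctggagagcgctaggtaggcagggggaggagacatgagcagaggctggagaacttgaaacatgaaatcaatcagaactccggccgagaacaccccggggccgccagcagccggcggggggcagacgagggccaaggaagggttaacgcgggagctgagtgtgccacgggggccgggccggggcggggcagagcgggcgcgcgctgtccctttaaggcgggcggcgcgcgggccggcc
Lgr4: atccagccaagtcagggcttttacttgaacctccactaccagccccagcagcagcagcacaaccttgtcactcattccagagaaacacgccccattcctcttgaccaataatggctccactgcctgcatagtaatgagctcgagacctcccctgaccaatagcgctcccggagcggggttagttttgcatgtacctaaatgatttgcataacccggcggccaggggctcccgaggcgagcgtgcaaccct
The motif searched was CTTTG followed by 2 bases that are each A or T, on both strands, and 14.8% of 32851 such windows of mouse genes held at least 1. None of the 3 windows held one, which says only that these letters are not in these bases. GC content was 65.2% for Lgr6, 69.2% for Axin2 and 55.6% for Lgr4. Of the 9 members, 5 were matched in the RefSeq table (Rspo1, Rspo4, Lgr4, Lgr6 and Rnf43).

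Lgr5 (ENSMUSG00000020140.15, chromosome 10, 115450311 to 115587780, minus strand), the marker of cycling stem cells in the gut, had 67, 18 and 130 counts in tdT+GFP+ libraries 1, 2 and 3, or 2.04, 0.580 and 4.95 CPM. In tdT-GFP+ libraries 1, 2 and 3 it had 44, 311 and 71 counts, or 1.45, 11.6 and 2.63 CPM. Library 2 of tdT-GFP+ cells was the highest and library 2 of tdT+GFP+ cells the lowest, though both carry the number of the same kidney. The log2 fold change was -1.06 (95% interval -3.40 to 1.28, SE 0.97, edgeR adjusted p = 0.660). Leaving out library 2 of tdT-GFP+ cells gave 0.29 and leaving out the pair from kidney 2 gave 0.77, so that the sign rested on 1 library. Within kidneys 1, 2 and 3 the log2 difference was 0.48, -4.17 and 0.89.

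The genes nearest to Lgr5 in pattern were Gja5, which encodes the gap junction protein connexin 40 of arterioles (0.26), Aqp1, the water channel of proximal tubule and descending thin limb (0.27), and Slc14a2, a urea transporter of the renal medulla (0.28), where the deviation of Lgr5 from its own mean was 1.31. Aqp1 had 216, 56.7 and 443 CPM in libraries 1, 2 and 3 of tdT+GFP+ cells, and 92.8, 1070.1 and 174 CPM in those of tdT-GFP+ cells. Slc14a2 had 22.5, 6.83 and 72.2 CPM and 13.96, 87.7 and 28.6 CPM. Both were highest in the library with the most Lgr5 and lowest in that with the least. The 12 tubule markers were mixed in this. Of them, 7 were lowest in the library with the least Lgr5, and 2 of these, Epcam and Krt18, were also highest in that with the most. Slc34a1 and Lrp2 went the other way. They had 181 and 140 CPM in the library with the least Lgr5, and 61.9 and 42.9 CPM in that with the most. Epcam had 16.5, 10.8 and 43.0 CPM in tdT+GFP+ and 20.6, 44.4 and 40.7 CPM in tdT-GFP+ libraries 1, 2 and 3. The summed level, to which Umod gave 82.5 to 754 CPM, had another order, with 559.7, 659 and 1006 CPM in tdT+GFP+ and 848, 1290.2 and 1906 CPM in tdT-GFP+ libraries 1, 2 and 3. What part RNA of tubule or vessel cells had in the Lgr5 counts was not tested.

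**Figure D3:**
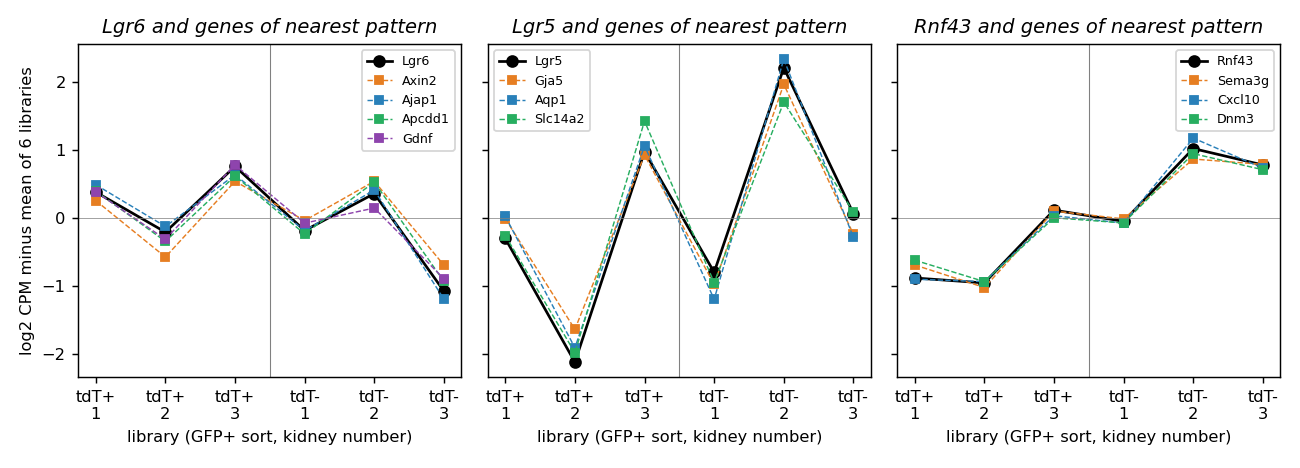
Log2 CPM minus the mean of the 6 libraries for Lgr6, Lgr5 and Rnf43 (black) and the genes nearest in pattern to each, with Axin2 added beside Lgr6; each point is 1 library, named by sort and kidney number, and lines only join the points of a gene. Lgr6 and Axin2 are lowest in tdT-GFP+ library 3, Lgr5 is highest in tdT-GFP+ library 2, and Rnf43 is lowest in tdT+GFP+ libraries 1 and 2.

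The 2 ligase genes went in opposite directions, with Znrf3 slightly higher and Rnf43 lower in the tdT+GFP+ means, and neither passed the threshold. Znrf3 (ENSMUSG00000041961.14, chromosome 11, 5276324 to 5444847, minus strand) had 17.6, 16.3 and 15.4 CPM in libraries 1, 2 and 3 of tdT+GFP+ cells, and 13.5, 14.4 and 13.3 CPM in those of tdT-GFP+ cells. The values did not overlap, and the difference had the same direction in 3 of 3 kidneys (0.38, 0.18 and 0.21 on the log2 scale). A higher tdT+GFP+ value in all 3 kidneys held for 15.4% of all genes tested. Non-overlap held for 1 of 7 members tested and for 15.8% of all genes (7.23% higher in tdT+GFP+ cells), so a share of this size is near the background. The means were 16.4 ± 1.13 against 13.7 ± 0.583 CPM (SD, n = 3 each), and the log2 fold change was 0.26 (95% interval 0.04 to 0.48, SE 0.09, unadjusted p = 0.0270, edgeR adjusted p = 0.442). Leaving out single libraries or kidneys gave 0.21 to 0.31.

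Rnf43 (ENSMUSG00000034177.15, chromosome 11, 87662722 to 87735539, plus strand) is the other ligase, known from gut epithelium. It had 20, 18 and 32 counts in tdT+GFP+ libraries 1, 2 and 3, or 0.610, 0.580 and 1.22 CPM, and 33, 61 and 52 counts in tdT-GFP+ libraries, or 1.09, 2.28 and 1.93 CPM. Library 3 of tdT+GFP+ cells lay above library 1 of tdT-GFP+ cells, so the populations overlapped, while within each kidney the tdT+GFP+ value was the lower one (-0.77, -1.86 and -0.63 on the log2 scale). Such a direction in all 3 kidneys held for 17.1% of all genes tested. The means were 0.803 ± 0.360 and 1.76 ± 0.613 CPM, 2.21-fold apart in the fit, with counting error of 0.167 and 0.253 CPM. The log2 fold change was -1.15 (95% interval -2.18 to -0.11, SE 0.43, unadjusted p = 0.0349, edgeR adjusted p = 0.447). When library 3 of tdT+GFP+ cells was left out it was -1.56, and when the pair from kidney 2 was left out it was -0.74. The genes nearest to Rnf43 in pattern were Sema3g, a secreted semaphorin (0.09), Cxcl10, an interferon-induced chemokine (0.09), and Dnm3, a dynamin (0.10). Tubule and endothelial markers also had lower mean levels in tdT+GFP+ cells, as given above, and their part in the Rnf43 values was not tested.

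Per kb of exon, Znrf3 was the dominant ligase in every library. Its ratio to Rnf43 was 24.0, 23.4 and 10.5 in libraries 1, 2 and 3 of tdT+GFP+ cells, and 10.3, 5.24 and 5.72 in those of tdT-GFP+ cells. All values of tdT+GFP+ cells were above those of tdT-GFP+ cells, by a narrow margin between tdT+GFP+ library 3 and tdT-GFP+ library 1. The ratio joins the ligase values given above, which went in opposite directions, so its separation is no further result. How often such ratios separate over all genes was not computed. With longest transcripts the ratio was 8.62 to 19.7 in tdT+GFP+ and 4.31 to 8.51 in tdT-GFP+ cells. The denominators rest on 18 to 61 counts, so the ratios are imprecise.

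The members with little scatter also had genes close to them in pattern. Znrf3 was nearest to Rcc1, the nucleotide exchange factor of Ran (0.02), Lsm2, an RNA processing gene (0.02), and Aimp2, a tRNA synthetase scaffold (0.03), and Lgr4 to the mitochondrial ribosome gene Mrpl47 (0.03), the fumarate hydratase gene Fh1 (0.04) and Ino80e (0.04). Rspo3 was nearest to Lgals3bp, Pcdhga11 and C1qtnf2 (each 0.06), and Rspo1 to Angel1 (0.08), Fads6 (0.11) and Rbm43 (0.13). Genes that vary little lie near many others on this scale.

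Among the surface receptors that the ligases clear, 3 Frizzled genes had lower means in tdT+GFP+ cells at an unadjusted p under 0.05, and no gene of the list passed the adjusted threshold. Of 12 Frizzled and Lrp genes tested, 5 had positive and 7 negative values, with a median of -0.06. The 3 were Fzd6, Fzd4 and Fzd10, where 6.97% of all genes were lower at such a p, and their groups did not overlap, where 8.60% of all genes were lower without overlap. Fzd6 had 6.16, 7.54 and 11.8 CPM in libraries 1, 2 and 3 of tdT+GFP+ cells, and 13.6, 18.5 and 20.7 CPM in those of tdT-GFP+ cells. Its log2 fold change was -1.06 (SE 0.27, adjusted p = 0.405, edgeR), and DESeq2 called it lower, at an adjusted p of 0.0203, or of 0.00052 when the kidney was a block (edgeR with that block 0.225). Fzd4, a receptor also known from endothelium, had -0.59 (SE 0.20), and Fzd10, at under 1.1 CPM in every library, had -1.24 (SE 0.49). Endothelial (12 of 12, median log2 fold change -1.28), tubule (11 of 12, -0.68) and mural markers (8 of 9, -0.51) had lower means in the same cells. DESeq2 called 9 endothelial, 1 tubule and 2 mural markers, all lower, where it called 2.00% of all genes. With the kidney as a block it called 6, 4 and 2 of them, where it called 1.90% of all genes. What part RNA of those cell types had in the Frizzled values was not tested. For the co-receptor genes the log2 values were -0.22 (SE 0.10, Lrp5) and 0.08 (SE 0.11, Lrp6).

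In the other parts of the route, edgeR called no gene either, and the Dishevelled and beta-catenin list had the values closest to 0. Of 10 heparan sulfate proteoglycan core genes 9 were tested, with 4 positive and 5 negative values and a median of -0.0012. Of these, 0 passed in edgeR, and 1 had an unadjusted p under 0.05, the glypican gene Gpc4 at 162 ± 9.30 against 133 ± 15.0 CPM (0.28, SE 0.10, adjusted p = 0.442). Values in this list ran from -0.53 (SE 0.60, Gpc3) to that of Gpc4, with -0.39 (SE 0.22) for Gpc2 and 0.20 (SE 0.12) for Gpc6. All 15 genes of the Dishevelled and beta-catenin list were tested, 8 positive and 7 negative with a median of 0.0023, and their values lay between -0.15 and 0.16. Ctnnb1, the beta-catenin gene, had -0.14 (SE 0.09), the kinase gene Csnk1a1 0.14 (SE 0.10) and Dvl3, a Dishevelled gene, 0.12 (SE 0.08). Of 13 Wnt feedback targets other than the members, 10 were tested, 6 positive and 4 negative with a median of 0.08, and they ran from -0.69 (SE 0.63, Notum) to 0.37 (SE 0.40, Apcdd1). Ccnd1, Tcf7 and Sp5 had the smallest p-values in that list, with -0.48 (SE 0.30), 0.26 (SE 0.16) and -0.52 (SE 0.42). In the last 2 lists 0 genes passed in edgeR or DESeq2, and 0 had an unadjusted p under 0.05 in edgeR.

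**Figure D4:**
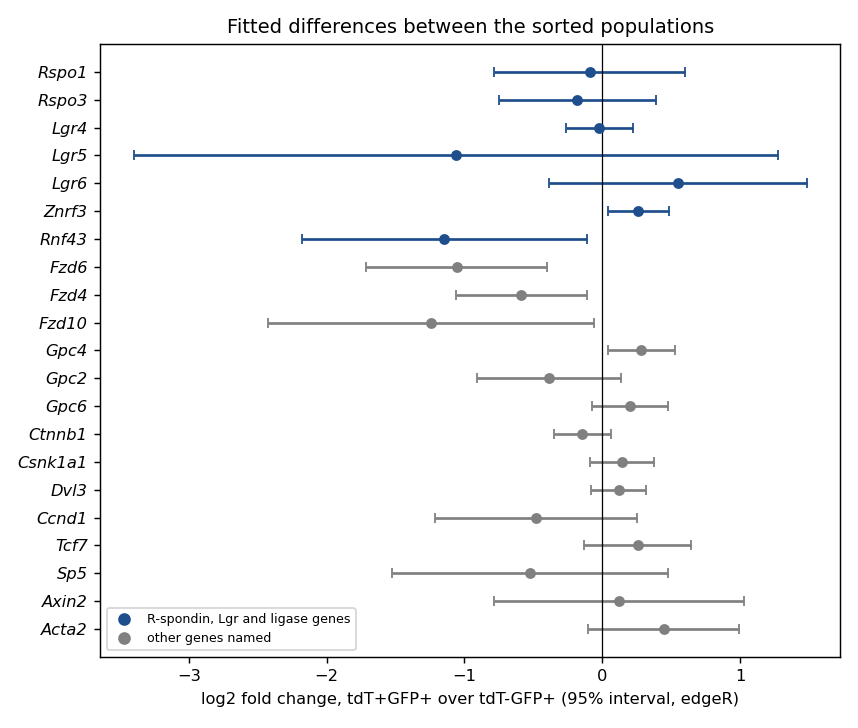
Log2 fold change of tdT+GFP+ over tdT-GFP+ cells with its 95% interval from edgeR, in blue for the 7 tested members and in grey for the pathway genes named, Axin2 and Acta2. Among the members the intervals of Lgr4 (-0.26 to 0.22) and Znrf3 (0.04 to 0.48) are the narrowest, and that of Lgr5 (-3.40 to 1.28) is the widest of all genes drawn.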

How the data were processed

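RNA was measured in 6 sorted-cell libraries, 3 per population. The deposited values are estimated counts per gene (RSEM, per the file headers), already whole numbers, so rounding changed 0 of them. The submitters' processing notes list STAR 2.6.1 and RSEM 1.2.28 with builds mm10 and GRCh38, without roles. The 92 ERCC rows were at 0 and left out. By identifier without version, 31748 gene rows were found in GENCODE M21 (GRCm38), which gave coordinates and exon lengths. After filterByExpr and TMM scaling, the group was the only term in edgeR 4.0.16 (robust glmQLFit, then glmQLFTest; R 4.3.3), with Benjamini-Hochberg adjustment over all 15462 genes. The procedure was run on simulated counts with its own fitted dispersions, to check the sign and size of planted changes. Those counts held no kidney effect and no mixture of cell types, so the run says nothing about either. A prior count of 2 went into the log2 CPM behind kidney differences and pattern likeness. The source and cell type labels give both libraries of a number to 1 kidney, which pairs them by the labels. Across genes, the 2 deviations from the group mean had correlations of 0.04 (kidney 1), -0.58 (kidney 2) and -0.30 (kidney 3), and kidney-wise values rest on those numbers. Alternatives were other scalings and filters, DESeq2 1.42.0, limma-voom 3.58.1, the kidney as a block and leaving out libraries or kidneys. Named were the members, Axin2, Acta2, the 3 genes per pathway list with the smallest p, and the 3 genes nearest in pattern to a member with at least 1 CPM; single others were named after their values were seen. Members and lists were chosen with earlier results of these data known.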

Additional observations from a re-analysis of the deposited data

How the results depend on the processing

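In all alternatives, 0 members passed the threshold. With the kidney as a replicate block, edgeR called 0 members and 0 of all genes, and the block turned no member's direction. Over all genes DESeq2 called 303 and, with the replicate block, 288, against 0 in edgeR, and in the Frizzled and Lrp list it called 1 gene (Fzd6, log2 fold change -1.05 and -1.08) in both fits. Leaving out libraries or kidneys turned the sign of Rspo1 (range -0.26 to 0.11), Lgr4 (-0.077 to 0.089), Lgr5 (-2.30 to 0.77) and Axin2 (-0.38 to 0.72). Rspo3 (-0.30 to -0.06), Lgr6 (0.0052 to 1.14), Znrf3 (0.21 to 0.31) and Rnf43 (-1.56 to -0.74) kept theirs. With longest transcripts the level per kb moved to 8.73 for Lgr4, 0.809 for Lgr5 and 2.39 for Znrf3, more than the SD over libraries, and within it to 0.298 for Rnf43 and 0.0086 for Rspo2. Counts of 18 to 61 limit Rspo1, Rspo3 and Rnf43, and the scatter between libraries limits Lgr5 and Lgr6.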
